A study of Arabidopsis thaliana with 16 samples.

Results

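This report describes how the leaf transcriptome of *Arabidopsis thaliana* differed between leaves mined by larvae of the pea leafminer (*Liriomyza huidobrensis*, a fly whose larvae eat the green tissue inside the leaf) and healthy leaves. It used the 3 arrays of leafminer-damaged plants and the 3 arrays of healthy plants, chosen by their titles, which are 6 of the 16 arrays of the series. All plants were wild-type Col-0 and 4 weeks old. Leaves that carried second instar larvae were picked as damaged samples, healthy samples came from leaves of undamaged plants of the same age, and each sample pooled tissue from at least 8 plants. The damaged leaves were therefore selected for carrying larvae, and mined and unmined tissue of a leaf went into the same RNA. For comparison, 3 arrays of undamaged plants exposed for 48 h to volatiles from leafminer-damaged Lima bean plants and 3 arrays of plants exposed for 48 h to volatiles from healthy Lima bean plants (the 48 h control) were used. The arrays were Affymetrix ATH1 chips, on which a probe set, a group of short probes, reports the transcript of 1 or a few genes as a signal intensity.

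When an insect wounds a leaf, plastid lipids are turned into jasmonate by lipoxygenase, allene oxide synthase and later enzymes, and jasmonate releases transcription factors of the MYC family from their JAZ repressors. Jasmonate acting with ethylene, through ERF factors, turns on defensins and basic chitinases, whereas salicylate turns on the classical PR-1 marker. Branches of the same lipid pathway and terpene synthases give leaf volatiles. Wounded leaves are also known to lose water, to produce reactive oxygen and to lower the transcripts of photosynthesis and growth.

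Of 22746 probe sets tested, 2902 (12.8%) were up-regulated in leafminer-fed leaves and 1476 (6.49%) were down-regulated, 19.2% in all, where a call required an adjusted p of at most 0.05 in limma and a change of at least 2-fold. Among the up-regulated probe sets, 1321 changed at least 4-fold and 293 at least 16-fold, against 365 and 12 among the down-regulated ones. In 4294 of the 4378 called probe sets the 3 fed and the 3 healthy values did not overlap. The call itself favours separate groups and the share over all probe sets was not counted, so this is no added evidence. The balance of directions depended on the scaling of the arrays. With the values as deposited 66.3% of calls were up-regulations and the log2 changes had a median of 0.14 over all probe sets, whereas quantile normalization gave 2227 up- and 2378 down-regulated probe sets (48.4% up) and a median of −0.06. Median scaling gave a split of 50.6% up. Small shifts of a list are therefore read below against the median of 0.14, and a list's counts after quantile normalization are given where they differ. The counts of every list and family are to be read beside the 12.8% up and 6.49% down of all probe sets.

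Before scaling, the median signal of an array was 27.7 to 29.4 in fed leaves and 22.1 to 27.4 in healthy leaves. Log2 signals correlated at 0.965 to 0.967 among fed arrays and at 0.958 to 0.962 among healthy arrays, against 0.871 to 0.900 between the groups. The sample titles say seedlings, and that leaves were sampled comes from the study's methods. RCA (Rubisco activase), a mesophyll marker, was bright in both groups, with signals of 3985 to 4836 in fed leaves and 4468 to 4800 in healthy leaves. Whether the samples held tissue other than leaves was not tested. The 3 flower, pollen and seed markers measured stayed at 10.3 or below in fed leaves and at 7.61 or below in healthy leaves, and none was called. The root hair expansins EXPA7 and EXPA18 stayed at 7.97 or below in fed leaves and at 8.93 or below in healthy leaves, with EXPA7 called only without fed replicate 1 (1.97). In RNA of whole leaves, fewer cells of a type and less RNA per cell cannot be told apart.

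Among probe sets that match 1 gene in the platform annotation, have separate groups and reach the median signal in the brighter group, the 10 largest rises included a calcium sensor, a glycosyltransferase and a jasmonate-inactivating enzyme. CML38, a calmodulin-like calcium sensor, had signals of 555.5, 309.7 and 375.9 in fed leaves, against 6.54, 2.29 and 0.524 in healthy leaves (log2 change 7.35 ± 0.59, SE, adjusted p = 2.2e-06). UGT76E12, a UDP-glycosyltransferase, had 273.4, 217.8 and 258.4 in fed leaves, against 0.367, 2.00 and 3.04 in healthy leaves (7.09 ± 0.90, adjusted p = 8.4e-05). JRG21, a dioxygenase that inactivates jasmonate by hydroxylation, had 1563, 1118 and 985.8 in fed leaves, against 5.52, 39.12 and 5.09 in healthy leaves (6.86 ± 0.78, adjusted p = 3.4e-05). In each of these 3 genes every fed array was far brighter than every healthy array, although separate groups were a condition of this selection. For CML38 and UGT76E12, 1 healthy value each lay below 1, so the floor described next enters their changes. Values below 1 were set to 1 before the log2, so a change against a group that lay entirely below 1 is a lower bound: AT2G22880 rose by at least 8.27 and AT1G20030 by at least 6.83 on the log2 scale. The remaining probe sets among these 10 rises were AT1G54020 (6.82), AT4G36010 (6.79), AT4G12500 (6.69), AT1G76640 (6.63) and a proline oxidase described below. Larger or similar rises of probe sets without an annotated gene, such as S-linalool synthase, are given with their groups.

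The 10 largest falls under the same conditions were smaller. AT1G70985 had signals of 0.465, 0.479 and 0.490 in fed leaves, against 50.62, 40.65 and 38.88 in healthy leaves, a fall of at least 5.43 on the log2 scale. A cysteine proteinase had 8.34, 20.88 and 10.74 in fed leaves, against 320.8, 364.5 and 514.7 in healthy leaves (−4.99 ± 0.57, adjusted p = 3.7e-05). The study selected it for its primer list by its fall with feeding. BZIP61, a bZIP transcription factor, had 0.268, 0.718 and 8.09 in fed leaves, against 37.29, 28.62 and 28.76 in healthy leaves (−3.96 ± 0.61, adjusted p = 0.00033). Separate groups were a condition of this selection, and the third fed array of BZIP61 lay well above the rest of its group. The rest of these 10 falls were AT1G49200 (−4.64), AT5G22460 (−4.58), AT1G60590 (−4.37), AT1G67750 and AT5G48360 (both −3.78), AT3G17640 (−3.56) and AT5G48460 (−3.52). COL2 (−3.92), a primer-list probe set without a gene in the platform annotation, fell as far as several of these.

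Jasmonate synthesis rose in every member that could be matched to a probe set. The list names 21 genes, of which only 3 were matched by symbol. All 7 matched members, primer-list genes included, were up-regulated, with a median log2 change of 3.33 beside 0.14 for all probe sets. Of these, 4 were identified through the study's list of qPCR primers, whose genes the study chose partly by their response on these arrays, so their direction is not independent evidence. AtLOX2, the plastid lipoxygenase that starts the pathway, had signals of 5010, 4793 and 4865 in fed leaves, against 868, 633.3 and 1008 in healthy leaves (2.57 ± 0.24, adjusted p = 6.8e-06). Another, putative lipoxygenase had 1416, 1482 and 2055 in fed leaves, against 16.07, 12.38 and 22.09 in healthy leaves (6.63 ± 0.36, adjusted p = 1.9e-07). Both lipoxygenases were thus among the bright transcripts of fed leaves, from very different levels in healthy leaves.

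The later steps followed. AOS (allene oxide synthase) had 2284, 2457 and 2746 in fed leaves, against 358.7, 336.2 and 433.2 in healthy leaves (2.73 ± 0.23, adjusted p = 3.4e-06). OPR3, which reduces the cyclopentenone precursor, had 3054, 3443 and 3953 in fed leaves, against 253.2, 241.3 and 281.6 in healthy leaves (3.75 ± 0.20, adjusted p = 1.9e-07). OPCL1, which activates the precursor for side-chain shortening in the peroxisome, had 775.3, 855.5 and 1106 in fed leaves, against 91.38, 76.73 and 85.0 in healthy leaves (3.42 ± 0.21, adjusted p = 4.9e-07). None of the fed values of these enzymes came near a healthy value. The galactolipase DGL was dim, at 8.31 to 13.3 in fed leaves and below 1 in all healthy leaves, so its rise of 3.33 is a lower bound. OPR2, a related reductase not assigned to jasmonate synthesis, rose by 2.25 ± 0.23 (adjusted p = 1.2e-05), on a probe set that also matches a near-identical copy.

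Downstream of jasmonate the members differed. VSP1, a vegetative storage protein and a standard jasmonate marker, had signals of 2981, 2861 and 2944 in fed leaves, against 24.67, 38.17 and 36.59 in healthy leaves (6.49 ± 0.46, adjusted p = 9.7e-07). Its probe set is shared with close relatives. The study selected VSP1 for its primer list partly by its rise with feeding, so its direction is not independent evidence. MYC4, one of the MYC factors held by JAZ repressors, fell, with 31.62, 37.29 and 48.77 in fed leaves, against 212.1, 107.0 and 182.9 in healthy leaves (−2.06 ± 0.33, adjusted p = 0.00046). Its partner MYC3 had 195.9, 167.4 and 193.9 in fed leaves, against 135.7, 66.68 and 124.8 in healthy leaves, a change of 0.83 ± 0.28 that missed the 2-fold limit (1.02 and called without healthy replicate 1). A marker of jasmonate output was thus high and a regulator of that output low in the same samples.

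The genes of leaf volatiles and methyl esters that could be matched to a probe set were all up-regulated. For the volatiles these were 3 members, from a list that names 23 genes. A probe set that the primer list names S-linalool synthase had signals of 1784, 1573 and 1984 in fed leaves, against 2.604, 14.11 and 4.53 in healthy leaves (8.33 ± 0.64, adjusted p = 1.7e-06). The platform annotation gives it no gene, and which terpene its enzyme makes was not tested. HPL1, the hydroperoxide lyase that splits lipid hydroperoxides into green leaf volatiles, had 402.0, 605.8 and 657.0 in fed leaves, against 129.5, 114.7 and 115.6 in healthy leaves (2.18 ± 0.20, adjusted p = 5.9e-06). CHAT, which makes the acetate ester of the leaf alcohol, had 82.81, 50.05 and 33.12 in fed leaves, against 1.56, 7.57 and 2.69 in healthy leaves (4.03 ± 0.79, adjusted p = 0.0019). Linalool synthase and HPL1 were among the primer-list genes, and the rise of linalool synthase was one of those by which the study selected them.

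All 3 carboxyl methyltransferases were up-regulated as well. BSMT1, which methylates salicylate and benzoate, had 782.0, 558.1 and 414.8 in fed leaves, against 8.06, 6.36 and 5.67 in healthy leaves (6.42 ± 0.72, adjusted p = 3e-05). JMT, which makes methyl jasmonate, had 121.5, 86.26 and 131.2 in fed leaves, against 23.02, 12.89 and 27.17 in healthy leaves (2.47 ± 0.49, adjusted p = 0.0021). NAMT1, a nicotinate methyltransferase, was dim at 1.98 to 3.97 in fed leaves and below 1 in healthy leaves. The size of the change ranked BSMT1 first, and the fed and healthy values were separate for all 3.

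**Figure D1:**
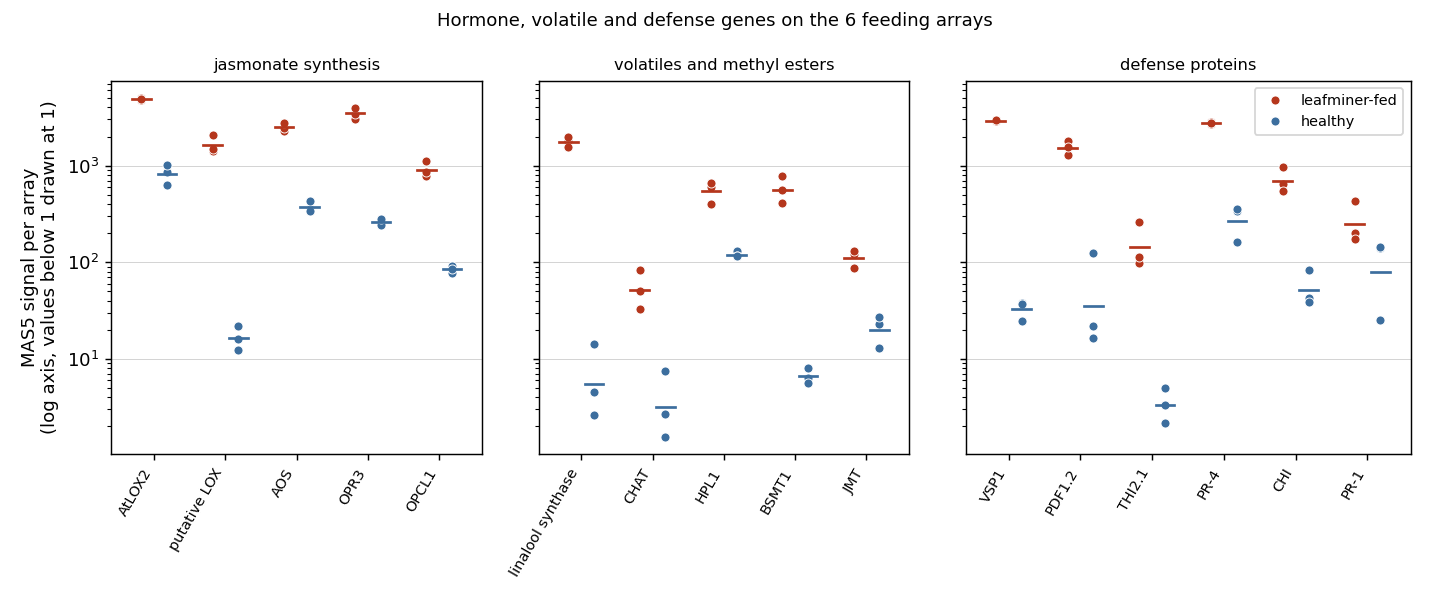
MAS5 signal (vertical log axis, values below 1 drawn at 1) of each of the 3 leafminer-fed arrays (red, left of each pair) and the 3 healthy arrays (blue, right), with the mean of the log2 values as a bar, for genes of jasmonate synthesis, volatiles and defense proteins. Fed and healthy points are separate for every gene shown, and PR-1, at the far right, has the narrowest gap between the groups in its panel, with 175.0 as its lowest fed and 142.5 as its highest healthy signal.

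Of 7 ethylene synthesis and signaling genes with a matched probe set, 5 were up-regulated, with a median of 1.69, whereas the list names 33 genes. As 4 of these 5 came from the primer list, the count is not independent evidence, and of the 3 found by symbol 1 was called. The strongest, an ethylene-responsive element binding factor from the primer list, had signals of 875.9, 513.3 and 592.2 in fed leaves, against 25.53, 26.93 and 16.39 in healthy leaves (4.84 ± 0.29, adjusted p = 3.1e-07). A second ethylene response factor rose by 3.2 ± 0.35, and ORA47, an ERF that activates jasmonate synthesis genes, rose by 2.25 ± 0.40 (adjusted p = 0.00095). ERF4 and ERF2 rose by 1.69 and 1.49 at signals that did not exceed 30.14 in fed leaves and 14.83 in healthy leaves. Both calls were lost without fed replicate 1 (1.55 and 1.39) or healthy replicate 3 (1.36 and 1.01), and that of ERF4 also without healthy replicate 2 (1.54). With the 6 feeding arrays fitted alone both were lost as well (adjusted p = 0.054 and 0.082). EIN3, the master regulator of ethylene signaling, had 456.9, 403.6 and 505.9 in fed leaves, against 244.8, 223.5 and 275.1 in healthy leaves, a change of 0.88 ± 0.25 below the 2-fold limit. An AP2 domain protein of the primer list, of the wider family to which ERFs belong, had 339.3, 681.7 and 791.3 in fed leaves and stayed below 1 on every healthy array.

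The list of salicylate and systemic resistance names 31 genes, of which only 3 had a matched probe set. All 3 lay above 0, with a median of 1.65, and 2 were up-regulated, SAG101 and BSMT1 (6.42, described above). PR-1 had signals of 427.8, 202.9 and 175.0 in fed leaves, against 139.8, 142.5 and 25.22 in healthy leaves. The values did not overlap, yet with a log2 change of 1.64 ± 0.87 (adjusted p = 0.19) the gene did not pass. SAG101, a partner of EDS1 in resistance signaling, rose, with 55.39, 50.09 and 51.67 in fed leaves, against 24.44, 14.33 and 13.32 in healthy leaves (1.65 ± 0.32, adjusted p = 0.0017). PR-1 was thus separate between the groups but variable within them, above all through the third healthy array.

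Of 10 defensins, thionins and related peptides, 6 rose and 2 fell, with a median of 2.36, and after quantile normalization 4 rose and 2 fell. PDF1.2, the defensin used as a marker of joint jasmonate and ethylene signaling, had 1793, 1280 and 1566 in fed leaves, against 21.92, 123.7 and 16.3 in healthy leaves (5.44 ± 0.64, adjusted p = 4.6e-05). The second healthy array was the brightest of the 3, and it also carried the highest healthy signal of PDF1.2b, a near-identical copy with which probes may be shared. THI2.1, a thionin, had 263.2, 98.37 and 113.3 in fed leaves, against 3.31, 5.02 and 2.16 in healthy leaves (5.44 ± 0.50, adjusted p = 6.6e-06). Its relative THI2.2 went the other way, with 7.01, 6.98 and 10.76 in fed leaves, against 28.53, 43.82 and 23.65 in healthy leaves (−1.94 ± 0.41, adjusted p = 0.003). LCR68, a defensin-like protein, likewise fell by 1.61 ± 0.28 on the log2 scale (adjusted p = 0.00086). OSM34 (osmotin) had 138.4, 119.1 and 53.73 in fed leaves, against 0.958, 28.52 and 7.19 in healthy leaves, and its call (4.03 ± 1.39, adjusted p = 0.046) was lost after quantile normalization and without any single array other than healthy replicate 2 (2.75 to 4.44). It was also lost with the 6 feeding arrays fitted alone (adjusted p = 0.08).

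All 3 chitinases and hevein-like proteins with a matched probe set rose, with a median of 3.76. Only 1 of them was matched by symbol, from a list that names 10 genes. The other 2 entered through the primer list and are not independent evidence. PR-4, a hevein-like protein, had 2720, 2812 and 2747 in fed leaves, against 337.9, 357.2 and 162.5 in healthy leaves (3.36 ± 0.26, adjusted p = 1.9e-06). A basic chitinase had 207.8, 233.3 and 176.9 in fed leaves, against 10.39, 19.72 and 15.94 in healthy leaves (3.79 ± 0.44, adjusted p = 3.8e-05). CHI, another chitinase, had 970.3, 639.4 and 550.2 in fed leaves, against 43.04, 82.45 and 38.86 in healthy leaves (3.76 ± 0.63, adjusted p = 0.00062). In each, every fed array was several-fold brighter than the brightest healthy array.

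Early stress, calcium and touch genes were up-regulated in 10 of 12 cases, with a median of 2.7, and 1 fell. Besides CML38, the calmodulin-like CML37 had 75.84, 27.83 and 41.99 in fed leaves, against 0.256, 1.37 and 0.341 in healthy leaves (5.33 ± 0.35, adjusted p = 6.9e-07). STZ, a zinc-finger repressor of drought and oxidative stress responses, had 904.6, 662.1 and 772.8 in fed leaves, against 30.92, 26.03 and 16.51 in healthy leaves (5.03 ± 0.35, adjusted p = 8.6e-07). WRKY53 had 419.9, 240.6 and 208.7 in fed leaves, against 36.62, 20.48 and 22.19 in healthy leaves (3.44 ± 0.45, adjusted p = 0.0001). WRKY factors are regulators of defense and senescence, and WRKY6 (2.92) and WRKY22 (2.58) also rose, while the other 3 of 6 family members with a symbol were not called.

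The glutamate receptor-like channel GLR3.6, which carries wound signals between leaves together with GLR3.3, was the gene of that list that fell, with 5.46, 8.37 and 2.81 in fed leaves, against 26.17, 20.25 and 28.19 in healthy leaves (−2.29 ± 0.34, adjusted p = 0.00027). GLR3.3 had 70.40, 77.27 and 76.70 in fed leaves, against 47.04, 33.99 and 50.62 in healthy leaves (0.79 ± 0.22, below 2-fold). Plant U-box ubiquitin ligases rose in 5 of 9 cases. PUB23 and PUB24, which dampen immune responses, rose by 3.04 and 2.82, and PUB22, their partner, chosen after its values were seen, rose by 1.27, although its second fed array (16.83) only just exceeded the highest healthy one (16.71). PUB19 rose by 3.91 ± 0.77 and PUB26 fell by 1.07 on the log2 scale. The call of PUB22 was lost without fed replicate 1 or 3 or healthy replicate 1 or 3 (0.99 to 1.21), and that of PUB26 without healthy replicate 3 (−0.92). That of PUB22 was also lost with the 6 feeding arrays fitted alone (adjusted p = 0.11).

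All 5 cold, drought and abscisic acid genes with a matched probe set rose, with a median of 4.44. The list names 57 genes, so most of it was not seen. LTI30, a dehydrin, had 249.9, 183.4 and 243.3 in fed leaves, against 7.62, 3.69 and 1.03 in healthy leaves (6.19 ± 0.56, adjusted p = 5.4e-06). COR15A, which protects chloroplast membranes from freezing, had 1999, 1577 and 1829 in fed leaves, against 70.67, 118.3 and 33.11 in healthy leaves (4.78 ± 0.49, adjusted p = 1.6e-05). COR47, a further dehydrin, had 3048, 3301 and 3006 in fed leaves, against 307.8, 430.6 and 223.1 in healthy leaves (3.33 ± 0.24, adjusted p = 1.2e-06). COR15B, the neighbour and relative of COR15A, rose by 4.44 ± 0.36. Of 11 late embryogenesis abundant and dehydrin genes found by annotation, which include some of the same genes, 8 rose with a median of 2.62. A late embryogenesis abundant protein of the primer list rose by 6.42 ± 0.25 (adjusted p = 5.6e-08).

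Defense and stress families that attach sugars or oxidise small molecules were split within. Of 50 UDP-glycosyltransferases, 16 rose and 5 fell, with a median of 0.50 (14 and 5 after quantile normalization). After UGT76E12, the largest rises were UGT71B5 (5.07 ± 0.41), UGT71B6, which acts on abscisic acid (3.81 ± 0.61), and UGT73B4 (3.58 ± 0.87). The falls included IAGLU, an indole-3-acetate glucosyltransferase, with 53.6, 71.36 and 63.67 in fed leaves, against 244.1, 207.3 and 281.2 in healthy leaves (−1.96 ± 0.33, adjusted p = 0.00067). UGT74D1, which also glucosylates auxins, had 66.18, 72.06 and 47.58 in fed leaves, against 227.9, 233.3 and 237.5 in healthy leaves (−1.93 ± 0.20, adjusted p = 1.9e-05). UGT84B1 of the same family, named after its values were seen, rose by 1.94. Auxin glucosylation as a whole was not tested. UGT78D1 and UGT78D2, which decorate flavonols, fell by 1.24 and 1.19 on the log2 scale.

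Among 23 cytochrome P450 genes with a symbol, mostly of the CYP71B subfamily, 5 rose and 1 fell, with a median of 0.26 (4 and 1 after quantile normalization). Over all probe sets 12.8% rose and 6.49% fell. CYP71B23 rose by 3.11 ± 0.50 and CYP71B37 by 3.09 ± 0.69, while CYP71B36 fell by 1.41 on the log2 scale, a call lost without any single array other than fed replicate 3 or healthy replicate 2 (−1.40 to −1.23). Of 11 tau-class glutathione transferases, which conjugate toxins and lipid peroxides, none rose and GSTU27 (−2.10) and GSTU23 (−1.53) fell, with 3 falls after quantile normalization. GSTU25 had 6.66, 13.38 and 2.41 in fed leaves, against 1.03, 2.71 and 2.46 in healthy leaves, with overlapping groups (1.66 ± 0.70, and 2.31 and called without fed replicate 3). A glutathione S-transferase of the primer list, outside this symbol family, nevertheless rose by 5.79 ± 0.52 (adjusted p = 5.4e-06), and a cytochrome P450 monooxygenase of the same list by 7.86 ± 0.48 (adjusted p = 3.9e-07).

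Endoplasmic reticulum bodies store β-glucosidases that split glucosides when cells are crushed, and several of their genes, not a list of their own, were called. PYK10, their main β-glucosidase, best known from roots, had 512.9, 827.7 and 1054 in fed leaves, against 115.8, 71.67 and 72.57 in healthy leaves (3.18 ± 0.31, adjusted p = 9e-06). NAI1, the bHLH factor that controls PYK10, had 163.8, 176.6 and 225.4 in fed leaves, against 18.55, 20.16 and 25.23 in healthy leaves (3.14 ± 0.22, adjusted p = 1e-06). NAI2, a structural protein of these bodies chosen after its values were seen, rose by 1.91 ± 0.29. All 4 jacalin-related lectins with a symbol, some of which join the PYK10 complex, rose with a median of 3.63. JAL23 had 1067, 1020 and 1009 in fed leaves, against 63.68, 43.27 and 42.97 in healthy leaves (4.39 ± 0.36, adjusted p = 2.5e-06). JAL33, JAL34 and JAL22 rose by 4.19, 3.07 and 2.09. PYK10 and NAI1 stood on the list of root markers, of which the other 2 measured members were the dim expansins EXPA7 and EXPA18; the part of root-type tissue in these values was not tested.

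Other β-glucosidases gave 8 rises and 1 fall among 20, with a median of 0.40 (8 and 2 after quantile normalization). BGLU27 rose by 4.17, and BGLU45 and BGLU46, which act on lignin precursors, rose by 3.08 and 2.29, all at low signals of at most 55.95 in fed leaves and 5.38 in healthy leaves. BGLU47 fell by 1.88 on the log2 scale. Of 5 genes of aliphatic glucosinolates, the transporters GTR1 (1.78 ± 0.22) and GTR2 (1.72 ± 0.22) rose, and the other 3, among them BCAT4 (0.44) and AOP3 (0.60) of their synthesis, were not called. Each of the 3 GTR1 values in fed leaves lay between 1204 and 1281, against 295.4 to 461.4 in healthy leaves.

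Among genes of redox repair and lignin, some rose strongly and others were not called. MSRB9, which repairs oxidised methionine, had 932.0, 903.6 and 978.1 in fed leaves, against 24.31, 26.78 and 14.57 in healthy leaves (5.47 ± 0.31, adjusted p = 2.6e-07), and 3 of 5 methionine sulfoxide reductases rose in all (median 1.52). Of 8 peroxidases 3 rose. PRX52, a wall peroxidase linked to lignin, had 191.1, 139.9 and 172.7 in fed leaves, against 5.74, 8.45 and 3.25 in healthy leaves (4.95 ± 0.52, adjusted p = 1.7e-05). CCR2, a cinnamoyl-CoA reductase of the lignin branch, had 244.0, 204.5 and 308.7 in fed leaves, against 5.53, 3.913 and 3.899 in healthy leaves (5.83 ± 0.34, adjusted p = 2.9e-07). HCT, an enzyme upstream in the same pathway, was bright in both groups, with 870.0 to 1159 in fed leaves and 568.1 to 640.7 in healthy leaves, and was not called (0.70 ± 0.17). In all, 2 of 4 phenylpropanoid and lignin genes rose. Flavonoid genes did not share this pattern: of 5, none rose, and CHIL, a chalcone isomerase-like protein outside the list and chosen after its values were seen, had 16.66, 17.44 and 13.76 in fed leaves, against 147.2, 139.9 and 188.3 in healthy leaves (−3.31 ± 0.34, adjusted p = 1.7e-05).

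**Figure D2:**
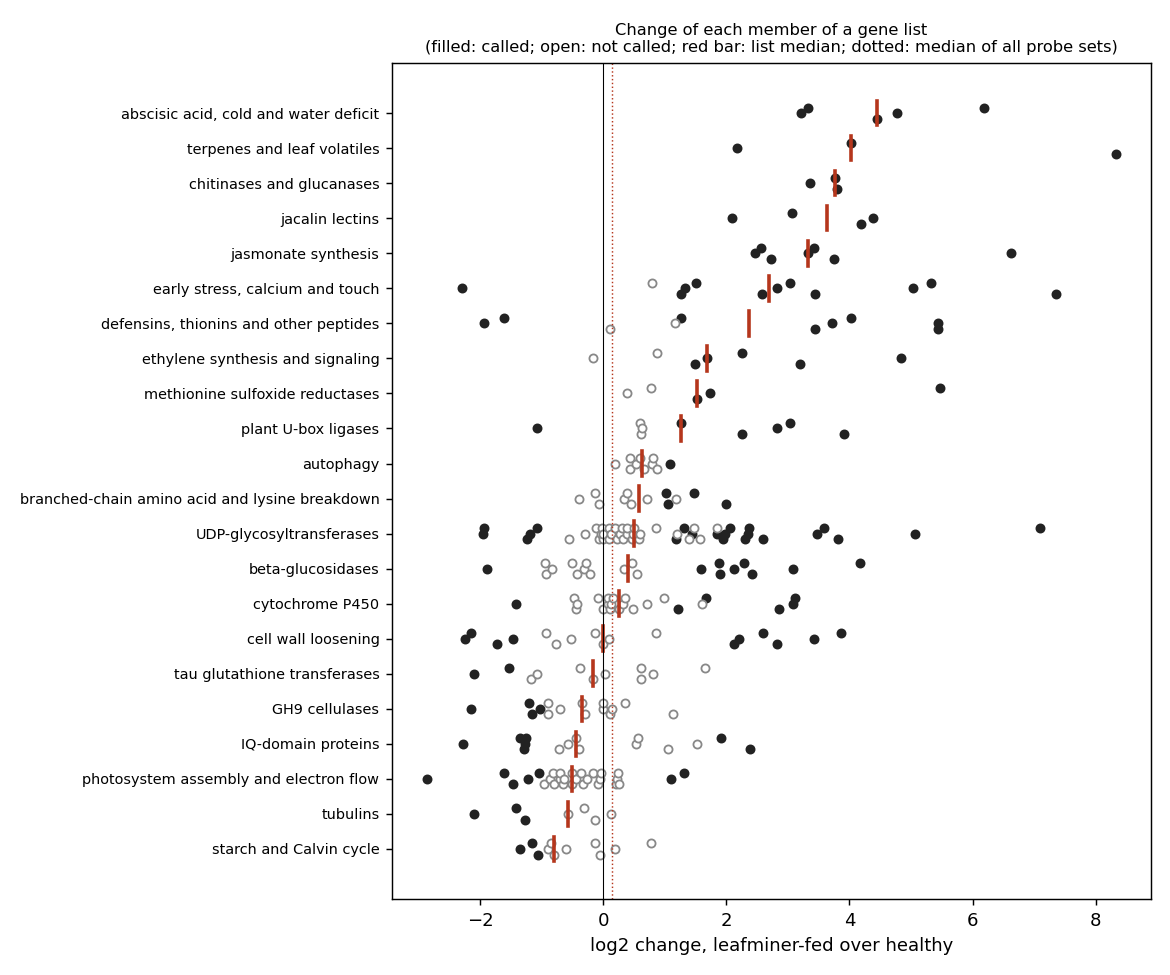
Log2 change, leafminer-fed over healthy (horizontal axis), of each measured member of 22 gene lists and families, with called members filled, members without a call open, the list median as a red bar and the median of all probe sets (0.14) as a dotted line. Lists of abscisic acid and cold (median 4.44), volatiles and chitinases lie wholly to the right, families such as UDP-glycosyltransferases spread to both sides, and starch and Calvin cycle genes (median −0.80) lie lowest.

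Amino acid and respiratory metabolism changed in a few strong members. A proline oxidase had 744.1, 646.5 and 739.5 in fed leaves, against 8.41, 9.16 and 5.52 in healthy leaves (6.56 ± 0.36, adjusted p = 1.9e-07). The study selected it for the primer list by its rise with feeding, so its direction is not independent evidence. AT4G33150, which carries the lysine-ketoglutarate reductase that breaks down lysine, had 435.7, 229.6 and 124.7 in fed leaves, against 26.21, 21.46 and 21.44 in healthy leaves (3.34 ± 0.56, adjusted p = 0.00062). IVD, a dehydrogenase of leucine breakdown, rose by 1.47 ± 0.45, and MGL, which cleaves methionine, rose by 1.99 ± 0.67. The call of IVD was lost without any single array (1.39 to 1.52), and that of MGL after quantile normalization and without any single array other than fed replicate 3 (1.59 to 2.16). NDB2, an alternative NADH dehydrogenase of mitochondria, had 384.6, 395.9 and 496.1 in fed leaves, against 77.06, 61.33 and 79.87 in healthy leaves (2.55 ± 0.23, adjusted p = 5.2e-06). Of 20 citrate cycle and respiratory probe sets, 5 rose and 1 fell with a median of 0.28. After quantile normalization 1 rise and 1 fall were left, and the 2 probe sets for SDH2-1 had opposite signs (1.02, called as deposited but not after quantile normalization, and −2.26), both without a call once fed replicate 1 (0.94 and −2.23) or healthy replicate 3 (0.90 and −2.26) was left out.

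Autophagy genes lay on one side without passing the test one by one. All 10 were above 0 with a median of 0.63, and the single call, APG8H (1.09), was lost after quantile normalization and without fed replicate 1 or healthy replicate 3 (both 0.99). APG8A, a ubiquitin-like protein of autophagosomes, had 184.2, 146.5 and 127.6 in fed leaves, against 114.0, 78.19 and 61.84 in healthy leaves (0.88 ± 0.33, adjusted p = 0.067, and 1.12 and called without healthy replicate 1). Of 13 vacuolar sorting and ESCRT genes, which sort membrane proteins for breakdown, 4 rose and 1 fell, led by VPS20.1 (2.43 ± 0.29) and VPS2.2 (−3.07 ± 0.49). BZIP60, the factor of the unfolded protein response, had 635.2, 418.4 and 476.2 in fed leaves, against 139.7, 103.2 and 99.49 in healthy leaves (2.15 ± 0.22, adjusted p = 1.6e-05). Of 16 endoplasmic reticulum folding genes, BZIP60 included, 2 rose, a share near that of all probe sets (12.8%), and after quantile normalization 1 rose and 1 fell.

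Sugar transporters of the SWEET family gave 3 rises and 1 fall among 14, with a median of 0.02. Over all probe sets 12.8% rose and 6.49% fell, so the share of falls was near that of the whole array. After quantile normalization there were 3 rises and 4 falls, with a median of −0.25. SWEET4 had 159.6, 87.84 and 103.7 in fed leaves, against 14.14, 12.13 and 12.17 in healthy leaves (3.15 ± 0.29, adjusted p = 6.8e-06). The vacuolar carriers SWEET16 and SWEET17 rose by 2.59 ± 0.21 and 1.67 ± 0.15. SWEET2, also vacuolar, had 35.51, 32.95 and 40.46 in fed leaves, against 179.9, 168.9 and 156.6 in healthy leaves (−2.22 ± 0.39, adjusted p = 0.00086). TMT2, which loads sugar into the vacuole, fell by 1.02 ± 0.18 on the log2 scale, without a call once fed replicate 1 (−0.92), healthy replicate 1 (−0.98) or healthy replicate 3 (−0.88) was left out. The fed and healthy groups were separate for all 5.

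Photosynthesis genes were lowered in part and mildly. Of 29 genes of photosystem assembly and electron flow, 5 fell and 2 rose with a median of −0.51. After quantile normalization 12 fell and 1 rose, with a median of −0.76. LHCB4.3, a minor antenna protein, had 31.92, 31.29 and 58.62 in fed leaves, against 275.7, 220.1 and 380.1 in healthy leaves (−2.87 ± 0.35, adjusted p = 5.7e-05). Its close relative LHCB4.1 remained bright at 3142, 3475 and 4000 in fed leaves, against 3281, 2888 and 3006 in healthy leaves, with overlapping groups (0.21 ± 0.14). NdhN, a subunit of the chloroplast NADH dehydrogenase-like complex, had 102.0, 141.7 and 202.9 in fed leaves, against 410.5, 415.5 and 498.3 in healthy leaves (−1.62 ± 0.28, adjusted p = 0.00092). CaS, a thylakoid calcium-sensing protein, fell by 1.46 ± 0.22 and NdhL by 1.23 ± 0.23 on the log2 scale. TAAC, a thylakoid nucleotide carrier, rose by 1.31.

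In carbon fixation, RCA did not differ detectably (−0.06 ± 0.15, overlapping groups). PRK (phosphoribulokinase) had 1078, 1563 and 1710 in fed leaves, against 2982, 2692 and 3274 in healthy leaves (−1.06 ± 0.21, adjusted p = 0.0017). SBPASE (sedoheptulose-bisphosphatase) had 676.8, 995.8 and 1096 in fed leaves, against 2106, 1843 and 2071 in healthy leaves (−1.15 ± 0.27, adjusted p = 0.0058). Both changes shrank below 2-fold without fed replicate 1 (−0.86 for PRK and −0.94 for SBPASE), and PRK also without healthy replicate 3 (−0.99). These 3 were also the measured mesophyll markers. Their summed signal was 5740 to 7642 in fed leaves and 9003 to 10140 in healthy leaves, and the part of mesophyll loss in the values above was not tested. ATSPS4F, a sucrose phosphate synthase named after its values were seen, had 62.9, 100.7 and 94.3 in fed leaves, against 852.3, 474.8 and 1164 in healthy leaves (−3.21 ± 0.40, adjusted p = 7.4e-05).

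Pigment genes were mixed. CHLM, a methyltransferase of chlorophyll synthesis, had 338.8, 464.2 and 527.9 in fed leaves, against 1034, 1091 and 1022 in healthy leaves (−1.27 ± 0.15, adjusted p = 4.9e-05). HEMA2, an isoform of the first enzyme of tetrapyrrole synthesis, had 91.78, 63.31 and 83.82 in fed leaves, against 24.46, 21.30 and 22.44 in healthy leaves (1.79 ± 0.18, adjusted p = 1.3e-05). PORB rose by 1.25, a call lost after quantile normalization and without healthy replicate 3 (both 0.92). It was also lost with the 6 feeding arrays fitted alone (adjusted p = 0.063). LYC (lycopene cyclase) of carotenoid synthesis fell by 1.55 ± 0.19 on the log2 scale.

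Of 69 probe sets for transcripts encoded in the chloroplast genome none was called, 50 lay below 0, and the median log2 change was −0.18 (−0.45 after quantile normalization, with 1 fall, and between −0.35 without healthy replicate 2 and −0.07 without healthy replicate 3). Their summed signal was 53930, 58170 and 62730 in fed leaves, against 70510, 52880 and 71340 in healthy leaves, which overlapped. Of 23 mitochondrion-encoded probe sets 3 rose, a share near that of all probe sets (12.8%), and 21 were above 0, with a median of 0.45. After quantile normalization 1 rise was left. Several were dim, among them matR, which was called at 11.91 to 16.13 in fed leaves and 4.016 to 11.83 in healthy leaves.

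Families linked to growth held falls beside many members without a call. Of all probe sets 6.49% fell and 12.8% rose. Of 7 tubulins 3 fell and none rose (median −0.57). TUB5 had 30.55, 40.72 and 82.61 in fed leaves, against 121.4, 120.9 and 131.7 in healthy leaves (−1.41 ± 0.28, adjusted p = 0.0022). Of 15 IQ-domain proteins, which link calmodulin to microtubules, 5 fell and 2 rose (median −0.45). IQD24 had 34.23, 39.41 and 38.64 in fed leaves, against 190.0, 164.2 and 190.3 in healthy leaves (−2.28 ± 0.17, adjusted p = 1.3e-06). Of 15 cellulases of family GH9, 4 fell and none rose (median −0.34, with 5 falls after quantile normalization). Of 22 TBL genes for acetylation of wall polysaccharides, 4 fell, 2 rose and 16 were not called (median −0.07), and after quantile normalization 7 fell and 2 rose. TBL25 had 88.38, 101.7 and 93.34 in fed leaves, against 388.5, 287.9 and 294.6 in healthy leaves (−1.77 ± 0.15, adjusted p = 2.9e-06).

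Wall-loosening genes went in both directions: of 17, 6 rose and 4 fell, with a median of 0.0 (6 and 5 after quantile normalization). XTH18, a xyloglucan endotransglucosylase, had 121.2, 54.98 and 105.5 in fed leaves, against 7.19, 6.23 and 5.18 in healthy leaves (3.86 ± 0.49, adjusted p = 7.8e-05). XTH32 had 78.28, 78.92 and 95.94 in fed leaves, against 386.8, 389.4 and 341.8 in healthy leaves (−2.15 ± 0.12, adjusted p = 2.1e-07). Among expansins, EXPA16 (3.42) and the expansin-like EXLA3 (2.83) and EXLA1 (2.59) rose, and EXPA8 (−2.25) and EXLB1 (−2.37) fell. The XTH and expansin families thus each held called members in either direction.

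Auxin and developmental genes gave single strong changes. GH3.3, which conjugates auxin to amino acids, had 114.0, 100.7 and 117.2 in fed leaves, against 3.25, 1.11 and 12.36 in healthy leaves (4.96 ± 0.64, adjusted p = 9.5e-05), and WES1 of the same family rose by 2.45 ± 0.53. The other 3 GH3 genes measured were not called. Of 9 auxin genes with a matched probe set, from a list that names 59, 2 rose and 1 fell. Their median was −0.55, and the one that fell was YUC6 (−2.44). Of 7 Aux/IAA genes, IAA18 rose (1.55) and IAA20 fell (−1.78). COL2, a CONSTANS-like factor, had 29.12, 41.78 and 38.43 in fed leaves, against 617.4, 524.1 and 503.8 in healthy leaves (−3.92 ± 0.40, adjusted p = 1.6e-05), and GI of the circadian system rose by 1.27 ± 0.24. GIS, a zinc-finger factor of trichome formation, fell by 2.54 ± 0.27 on the log2 scale. STOMAGEN, a mesophyll peptide that promotes stomata, had 15.83, 14.25 and 28.25 in fed leaves, against 113.7, 118.6 and 64.72 in healthy leaves (−2.37 ± 0.35, adjusted p = 0.00028). SKU5, a cell surface protein of directional growth, fell by 2.79 ± 0.28 on the log2 scale. STOMAGEN and SKU5 were chosen after their values were seen. No histone or cell division gene with a symbol (8 and 5 probe sets) was called.

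**Figure D3:**
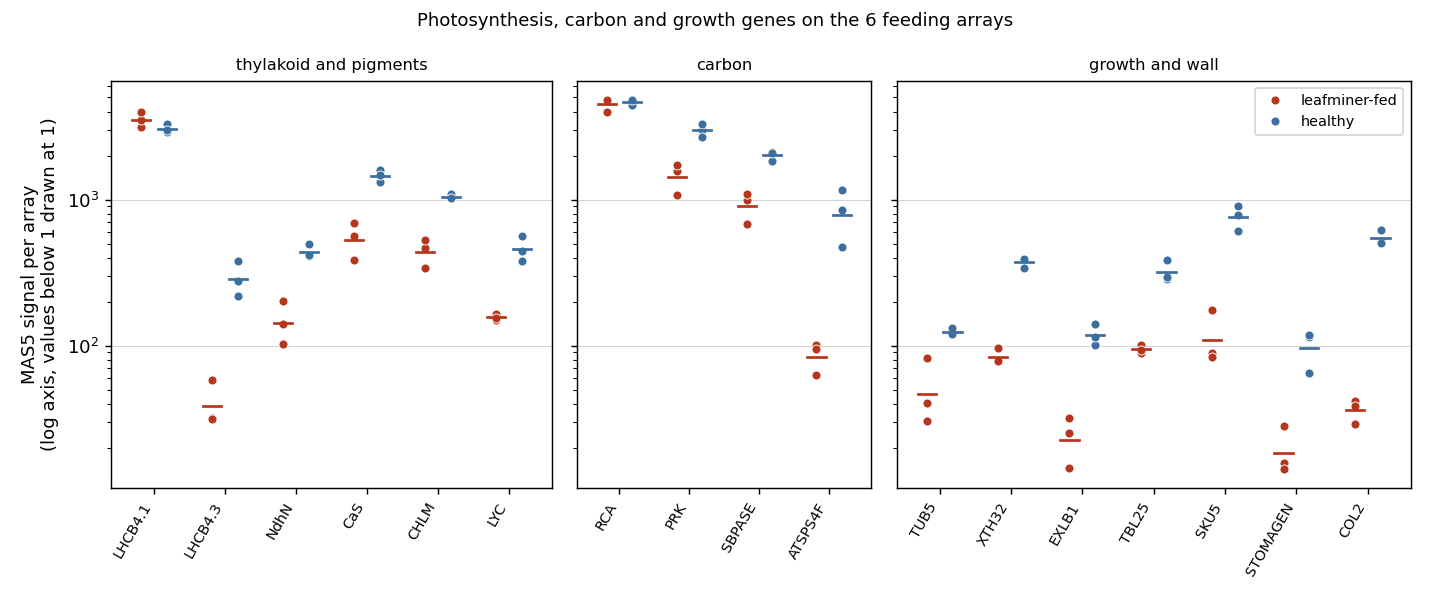
MAS5 signal (vertical log axis) of each of the 3 leafminer-fed arrays (red, left of each pair) and the 3 healthy arrays (blue, right), with the mean of the log2 values as a bar, for genes of photosynthesis, carbon metabolism and growth. LHCB4.1 and RCA overlap between the groups, whereas every other gene shown was lower on all fed arrays, with COL2 (log2 change −3.92) and ATSPS4F (−3.21) farthest apart.

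The response to feeding was set against that to 48 h of Lima bean volatiles, in which 127 probe sets (0.558%) rose and 47 (0.207%) fell in volatile-exposed plants relative to the 48 h control. The arrays of both comparisons are separate, and the difference of the changes was tested in the same fit. The experiments also differed in time and sampling. Fed samples were picked leaves, taken once the larvae had reached the second instar, whereas volatile samples were receiver plants frozen after 48 h in a jar. The part of these differences in the values below cannot be told apart from that of the treatments. It passed in 3194 probe sets (14.0%), with feeding above volatiles in 2002 (8.80%) and below in 1192 (5.24%). Of the 127 that rose with volatiles, 56 (44.1%) also rose with feeding and 16 (12.6%) fell, and the 56 made up 1.93% of all that rose with feeding. Of the 47 that fell with volatiles, 12 (25.5%) also fell with feeding and 6 (12.8%) rose. Over all probe sets 12.8% rose and 6.49% fell with feeding, so the last share was that of the whole array. After quantile normalization of all arrays, 50 of the same 127 rose and 21 fell with feeding, and 6 of the 47 rose and 17 fell. The 186 probe sets of 5 defense terms that the study listed for the 48 h volatiles, chosen on those arrays, held 116 that rose and 12 that fell with feeding, with a median of 1.79 (108 and 18 after quantile normalization). The term for response to other organisms held 45 rises and 4 falls among 59 (42 and 5).

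Under these unlike times and samples, the matched jasmonate genes changed more with feeding than with volatiles. For the jasmonate synthesis list the median change was 3.33 with feeding and 0.39 with volatiles, and the difference passed for 6 of 7 members. AtLOX2 had 1380, 1751 and 1178 in volatile-exposed plants, against 801.1, 438.7 and 661.0 in the 48 h control (1.2, adjusted p = 0.037), and its change with feeding was larger by 1.37 ± 0.34 (adjusted p = 0.015). For S-linalool synthase the difference was 8.24 ± 0.91 and for VSP1 5.12 ± 0.65 (adjusted p = 0.0001 and 0.00024). Both were selected by the study partly for their rise with feeding. OPR2 had 413.4, 449.8 and 402.8 in volatile-exposed plants, against 166.7, 147.4 and 87.86 in the 48 h control, and its difference of 0.54 ± 0.32 did not pass (adjusted p = 0.30). The difference also did not pass for the basic chitinase (1.25 ± 0.62, adjusted p = 0.21) or UGT84A3 (0.70, adjusted p = 0.28).

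Some genes changed in opposite directions, with the difference past the threshold. LHCB4.3, which fell with feeding, had 179.1, 233.0 and 146.4 in volatile-exposed plants, against 84.49, 53.66 and 33.04 in the 48 h control (1.78, adjusted p = 0.036; difference −4.66 ± 0.49, adjusted p = 8.5e-05). CHIL had 35.86, 61.05 and 43.53 in volatile-exposed plants, against 18.54, 14.15 and 7.99 in the 48 h control (1.84, adjusted p = 0.029; difference −5.14 ± 0.49, adjusted p = 4.8e-05). IAGLU had 156.7, 183.3 and 110.3 in volatile-exposed plants, against 24.74, 47.41 and 68.16 in the 48 h control (1.77, adjusted p = 0.029; difference −3.73 ± 0.47, adjusted p = 0.00023). SWEET16 showed the reverse, with 19.84, 21.36 and 14.34 in volatile-exposed plants, against 48.24, 36.70 and 43.58 in the 48 h control (−1.22, adjusted p = 0.021; difference 3.81 ± 0.30, adjusted p = 1.5e-05). In healthy leaves of the feeding experiment LHCB4.3, CHIL and IAGLU were brighter than in the 48 h control, while SWEET16 was dimmer, each with no overlap, so the unexposed levels of the experiments also differed for these genes. The anthocyanin genes UF3GT and DFR rose with volatiles by 4.65 and 3.59 and were not called with feeding (1.39 ± 0.82 and 1.67 ± 0.76), but the difference did not pass for either (adjusted p = 0.081 and 0.28).

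**Figure D4:**
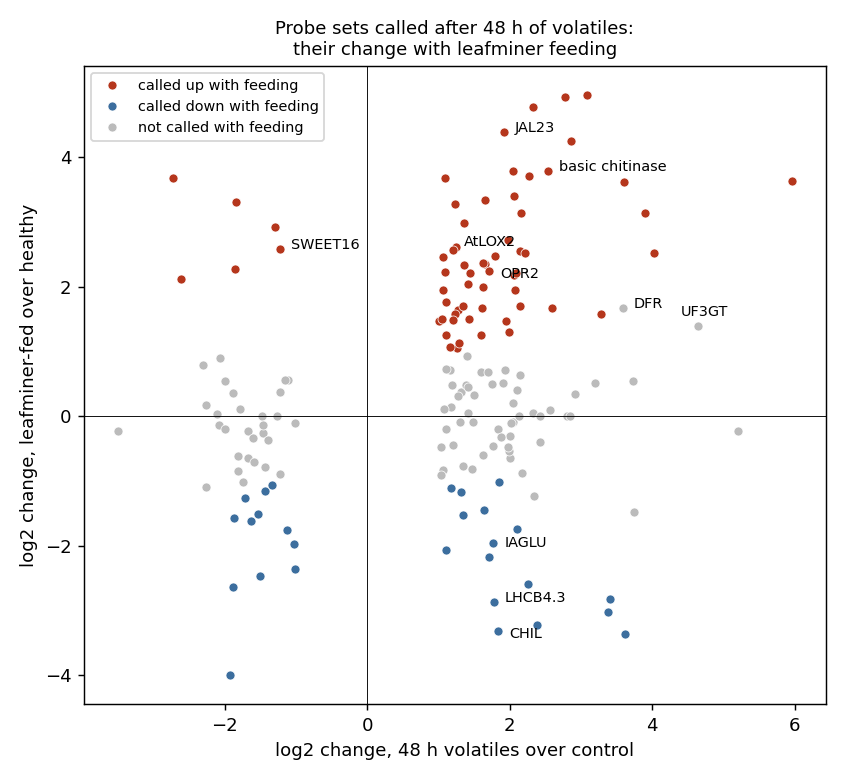
Log2 change with leafminer feeding over healthy (vertical axis) against log2 change with 48 h volatiles over control (horizontal axis) for the 174 probe sets called after 48 h of volatiles, coloured by their call with feeding, with some genes named. Of the 127 at the right, 56 were up-regulated with feeding (red) and 16 down-regulated (blue, among them LHCB4.3, CHIL and IAGLU), and SWEET16 is one of 6 up-regulated points at the left.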

How the data were processed

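RNA of leaves was hybridised to Affymetrix ATH1 arrays. The deposited values were signal intensity on a linear scale, made by the authors with MAS5 from each array separately. The version and the scaling target were not given in the sources used here. The 64 Affymetrix control features among the 22810 on the array were not analysed, and log2 was taken after raising values below 1 to 1. The precision is limited by the number of arrays. Groups were taken from the sample titles, and each feeding sample was a separate pool of plants. The spread behind each SE and p-value was estimated over all 16 arrays, within their 6 groups, and not from the feeding pools alone. It can therefore be smaller or larger than that of the feeding pools. BZIP61 had an SE of 0.61, with SDs of 1.74 (fed) and 0.22 (healthy) in log2 signal. UGT76E12 had an SE of 0.90, with SDs of 0.17 (fed) and 0.81 (healthy).

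All 16 arrays in 6 groups were fitted in limma 3.58.1 (R 4.3.3; group means, empirical Bayes with a trend), with Benjamini-Hochberg adjustment over 22746 probe sets. A call required an adjusted p of at most 0.05 and a 2-fold change. The significance method named in the study's methods, SAM, was not rerun. On simulated arrays with the spread of these, the adjusted p of fed against healthy leaves passed, above the median signal, for 98 of 100 changes of 2 and 49 of 100 changes of 1 on the log2 scale. It also passed for 13 unchanged probe sets. No fold limit was applied there, and far fewer probe sets changed than the 6704 that passed the adjusted p in the real data. The adjustment was thus stricter in the simulation, and these shares do not give the power of the calls above. Genes were named by the platform annotation (13513 probe sets with 1 gene, 503 with several, 8730 not listed), symbols from RefSeq (1580 probe sets) and 35 primer-table probe sets. Lists and families therefore hold only members with a symbol or such a name, and a measured member is one matched in this way. Each is described by counts and its median with no test of its own. The study chose the primer-table genes partly by their response on these arrays, so their direction is not independent evidence. Named were the 10 largest rises and falls above the median signal, with separate groups and 1 gene; up to 4 called members per list and direction and 2 without a call; and primer-table genes. The members and lists were chosen with earlier results of these data known. Alternatives were quantile normalization, median scaling, other floors, filters and thresholds, no variance trend, the 6 feeding arrays alone, an array left out and a replicate block.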

Additional observations from a re-analysis of the deposited data

How the results depend on the processing

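The number of up-regulated probe sets stayed within 1.5 times of 2902 except with 16 added before the log2 (1929), and that of down-regulated ones (1476) moved to 2378 after quantile normalization, 2254 after median scaling, 794 with 16 added and 2288 at a fold of 1.5. Adding 16 shrinks the change of dim probe sets by construction. Over all probe sets the median change, 0.14 on the log2 scale, turned to −0.061 after quantile normalization and to −0.039 after median scaling, and that of chloroplast-encoded probe sets (−0.178) moved to −0.452 after quantile normalization and −0.421 after median scaling. The cause of the scaling dependence was not tested. Leaving out 1 array at a time gave 2588 to 3189 up- and 1295 to 1658 down-regulated probe sets. With the 6 feeding arrays fitted alone 2624 rose and 1267 fell, and 5 single-gene calls were lost.

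Of 157 results for single genes, 125 kept their direction and their call, or lack of one, under all alternatives run, and 29 lost or gained a call under at least 1; after 16 was added, 19 calls were lost. The 3 that changed sign had no call: EXPA18 turned to 0.15, 0.30 and 0.34 without fed replicate 1, healthy replicate 1 and healthy replicate 2 (lowest −1.23, without healthy replicate 3), LHCB4.1 to −0.04 after median scaling, and RCA to 0.03 without fed replicate 1 (lowest −0.11, without fed replicate 3). With the replicate number as a block, 2901 probe sets rose, 1506 fell, 90 members of lists and 98 members of families were called (93 and 99 without the block), and 3058 probe sets differed from the 48 h volatiles. Same-numbered samples correlated at 0.019 to 0.034 in their deviations, below 0.1, although each correlated best with its own number, so the numbers were not taken as pairs. The calls of OSM34 and MGL were lost under the block. At low signal, 813 calls had both group means below the median of all log2 values (4.59). UGT84B1, YUC6, IAA18 and IAA20 were not among the 157 single-gene results.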
